A study of Mus musculus with 12 samples.

Results

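Genes that mark resident and recruited macrophages were followed through the colon transcriptome of mice with dextran sulfate sodium (DSS) colitis, with and without ursolic acid (UA). They were taken by symbol and are Adgre1, Cd68, Csf1r, Fcgr1, Cd163, Mrc1, Cx3cr1, Cd14, Mertk and Timd4, 10 of the 54532 genes counted. All 10 passed the low-count filter that left 17658 genes for testing.

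Colon RNA of C57BL/6 mice was sequenced in 12 libraries, 3 for each of 4 groups, each library from the colon of a separate mouse. The male mice arrived at 6 weeks of age and were kept for 1 week before the experiment. The Con group is untreated by its label, while by the methods both Con and DSS mice were gavaged with vehicle. The DSS group drank 3% (w/v) DSS, a sulfated polysaccharide that injures the colonic epithelium, for 5 days. The UA+DSS group received the same DSS, and UA (a pentacyclic triterpenoid of many plants) was gavaged at 200 mg/kg beginning 24 h before DSS. The DSS+UA group received the same DSS, and UA at that dose from 3 days after DSS. UA lasted 7 days in UA+DSS and 4 days in DSS+UA by the methods, but 9 and 5 days by the discussion. All groups are wild type, no group received UA without DSS, and the 12 libraries hold whole tissue.

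Colonic macrophages are maintained largely by blood monocytes that enter the lamina propria and mature there, while a smaller resident population near vessels, nerves and muscle maintains itself locally. Maturing monocytes lose Ly6C and CCR2 and gain F4/80, CD64, CX3CR1, MerTK and scavenger receptors, and they depend on signalling through the Csf1 receptor throughout. In an inflamed colon the newly entered cells accumulate at early stages of that path, so markers of macrophage identity, of scavenging and of clearance of dying cells need not move together.

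The total count per library was 15566216 to 19498383. Levels are in CPM, normalised read counts after TMM, replicates 1, 2 and 3 are named in that order, and DSS 2 is replicate 2 of the DSS group. Pairs of groups were compared with edgeR's quasi-likelihood test, p-values were adjusted across every tested gene (Benjamini-Hochberg), a gene was called under 0.05, and calls were recomputed in 22 alternatives. The smallest p an exact permutation test of 3 against 3 allows is 0.1, so single values carry no such test. Some libraries stood apart. DSS 2 had a summed level of 10 neutrophil genes of 18489 CPM, against 925 and 1048 CPM in the other DSS libraries. Where along the colon a sample lay was scored as the difference in mean log2 CPM between 5 distal and 6 proximal Hox genes, which was 5.53, -3.03 and -1.83 in Con. It lay at 0.37 to 3.10 in DSS, at -5.70 to -4.16 in UA+DSS and at 4.11 to 5.06 in DSS+UA. The part of the colon sampled and the treatment therefore cannot be told apart for the UA groups, and results are also given with this score as a covariate.

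The transcription factor PU.1 (Spi1) governs many macrophage genes and binds purine-rich sites with a GGAA core. The 250 bases before the start of each gene were read from RefSeq (GRCm38.p6) for the 7 markers with an entry used here. GAGGAA and GGAAGT were searched on both strands, and matches of one word can adjoin those of the other. They are shown for the markers on which the results turn, 5′ to 3′ on the strand of the gene, with the matches in capitals. Cd68 lies on the minus strand (chr11:69666171-69666420), Fcgr1 on the minus strand (chr3:96293970-96294219), and Mrc1 (chr2:14229164-14229413), Cd163 (chr6:124304401-124304650) and Mertk (chr2:128698665-128698914) on the plus strand.
Cd68: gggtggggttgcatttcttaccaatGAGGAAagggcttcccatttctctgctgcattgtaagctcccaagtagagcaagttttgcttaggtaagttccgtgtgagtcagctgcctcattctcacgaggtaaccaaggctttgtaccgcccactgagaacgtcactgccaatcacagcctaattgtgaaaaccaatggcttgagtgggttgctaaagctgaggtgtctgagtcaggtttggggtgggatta
Fcgr1: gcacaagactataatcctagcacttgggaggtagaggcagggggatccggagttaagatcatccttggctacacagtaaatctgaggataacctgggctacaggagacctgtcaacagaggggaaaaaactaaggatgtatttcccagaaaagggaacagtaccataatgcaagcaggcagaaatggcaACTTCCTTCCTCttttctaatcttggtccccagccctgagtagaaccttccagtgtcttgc
Mrc1: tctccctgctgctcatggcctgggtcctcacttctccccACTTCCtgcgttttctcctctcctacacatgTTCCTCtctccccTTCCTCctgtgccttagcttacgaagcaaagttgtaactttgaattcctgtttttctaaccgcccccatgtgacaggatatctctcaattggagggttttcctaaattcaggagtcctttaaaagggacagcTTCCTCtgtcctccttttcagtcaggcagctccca
Cd163: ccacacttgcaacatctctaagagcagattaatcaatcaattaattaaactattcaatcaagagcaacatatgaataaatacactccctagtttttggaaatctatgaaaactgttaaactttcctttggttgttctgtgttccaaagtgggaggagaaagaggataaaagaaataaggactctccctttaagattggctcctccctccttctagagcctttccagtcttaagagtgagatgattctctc
Mertk: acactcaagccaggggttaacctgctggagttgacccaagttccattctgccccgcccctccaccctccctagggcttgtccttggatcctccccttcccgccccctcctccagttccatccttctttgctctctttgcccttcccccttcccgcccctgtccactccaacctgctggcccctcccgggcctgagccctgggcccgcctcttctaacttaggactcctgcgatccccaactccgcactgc
The Cd68 sequence held GAGGAA at -225 to -220 on its own strand. The Fcgr1 sequence held both words on the other strand, at -61 to -50. The Mrc1 sequence held 4 matches on the other strand, the nearest at -35 to -30. No match stood in the windows of Cd163, Mertk and Cx3cr1, and Timd4 held GGAAGT at -72 to -67. Either word occurred in 4 of the 7 markers and in 36.7% of 32851 promoter windows of the same length, and a match is a description of the letters and not a binding site.

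To compare the genes with each other, counts were divided by the length of the merged exons (CPM per kilobase). In Con the means on this scale ran from Cd14 (27.1), Mertk (9.66), Cd68 (6.13), Csf1r (5.47) and Mrc1 (4.24) to Adgre1 (3.24), Cx3cr1 (3.08), Fcgr1 (1.11), Cd163 (0.93) and Timd4 (0.36). In DSS the order was Cd14 (539), Cd68 (42.3), Csf1r (26.9), Mrc1 (20.2), Cd163 (12.4), Adgre1 (12.0), Fcgr1 (7.53), Mertk (6.25), Cx3cr1 (3.19) and Timd4 (0.91). Mertk thus went from the second place to the eighth and Cd163 from the ninth to the fifth. Over the 12 libraries the CPM of Cd163 spanned 93.8-fold and that of Cd14 87.6-fold, while Mertk spanned 5.29-fold and Cx3cr1 2.81-fold. Timd4 had 3 to 56 counts per library and is the least precise of the 10.

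**Figure D1:**
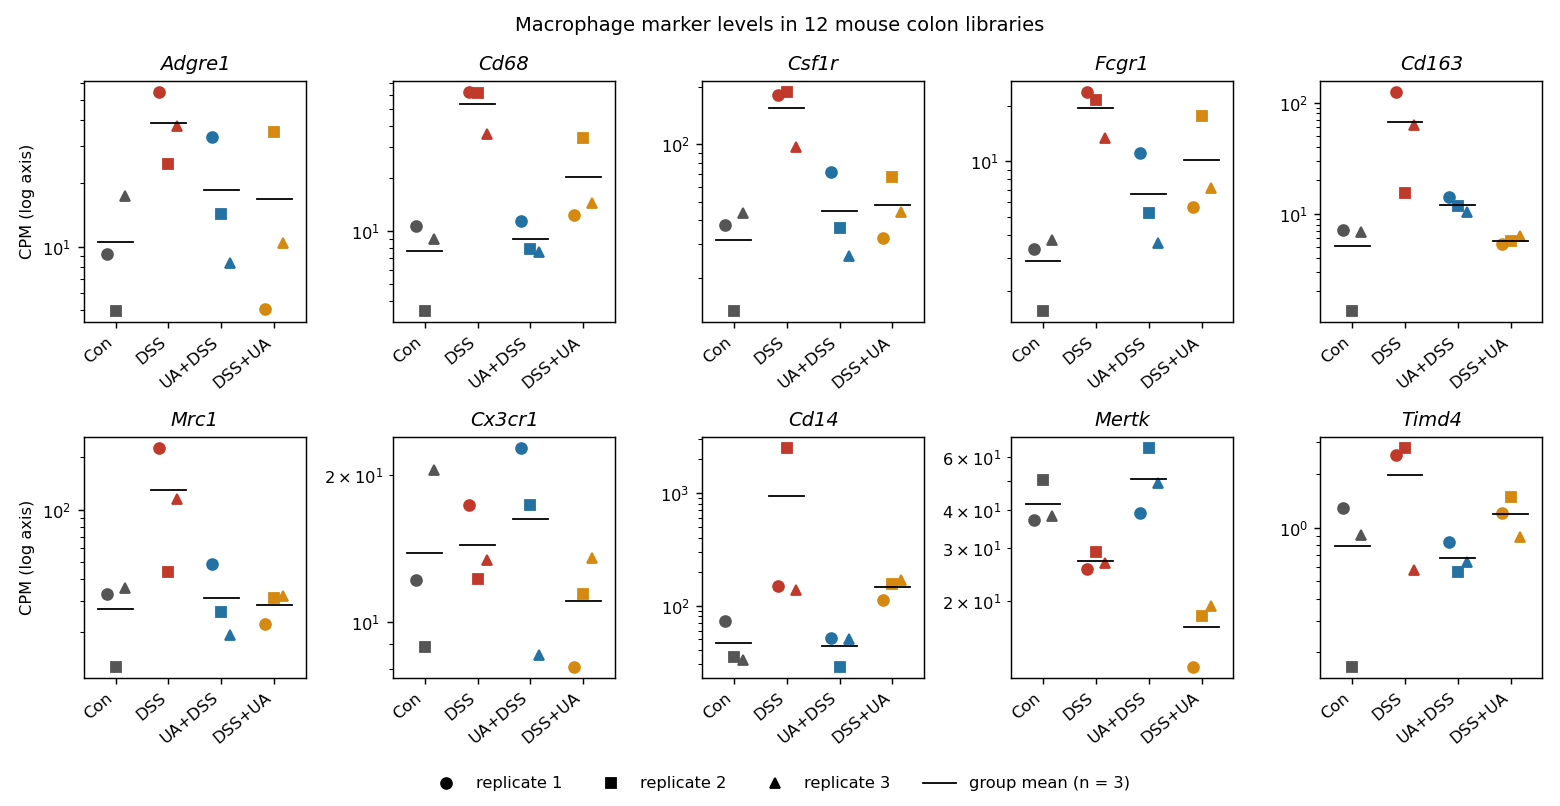
CPM (log axis) of each of the 10 markers in every library, by group, with the replicate number as the symbol and the group mean as a line. Cd68, Csf1r, Fcgr1, Cd163 and Mrc1 sit highest in DSS, Cd14 stands at 2519 CPM in DSS 2, Mertk is lowest in DSS+UA (12.2 to 19.2 CPM), and Cx3cr1 overlaps in all groups.

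In DSS against Con, 6 of the 10 markers rose (Cd68, Csf1r, Fcgr1, Cd163, Mrc1 and Cd14) and none fell. Of all tested genes 13.9% were raised and 12.6% lowered in this comparison. In either direction 26.5% were called, and 40.6% had an unadjusted p under 0.05, as did 8 of the 10 markers. DSS and Con libraries did not overlap for 8 of the markers, against 41.3% of all tested genes. The median log2 fold change of the markers was 2.27, beside -0.03 over all tested genes. In tissue RNA, more cells of a type and more RNA per cell cannot be told apart.

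In UA+DSS against DSS, 5 of the 10 markers fell (Cd68, Csf1r, Cd163, Mrc1 and Cd14) and Mertk rose. Of all tested genes 10.5% were lowered and 8.21% raised (18.7% in either direction), and 34.6% had an unadjusted p under 0.05, as did 8 of the 10 markers. The groups did not overlap for 6 markers, against 42.8% of all genes, and the median log2 fold change of the markers was -1.68. None of the 6 calls remained with the position score as a covariate. There the edgeR adjusted p of the markers was 0.196 to 0.953, with 2 of the 10 at an unadjusted p under 0.05. Of all tested genes 3 were called in that fit, against 3300 without the score, so the loss was not particular to the markers. DESeq2 and limma-voom, run without the score, called 4497 and 3082 of all tested genes. Each called 6 markers, but not the same 6 as edgeR. Both added Fcgr1 (adjusted p = 0.0163 by DESeq2 and 0.0341 by limma-voom). Cd163 was not called by limma-voom (0.0737), and DESeq2 gave no adjusted p for Cd14. Without UA+DSS 2 edgeR called 0 markers, with 7 at an unadjusted p under 0.05, without UA+DSS 3 it called 1, and without DSS 1 it called 2. Of all tested genes edgeR called 183, 1390 and 1722 in the same order, against 3300 with all libraries.

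In DSS+UA against DSS, Cd163 alone was called, as lowered, where 5.0% of all tested genes were lowered and 2.54% raised (7.54% in either direction). An unadjusted p under 0.05 was seen for 6 of the 10 markers and for 29.9% of all genes. The groups did not overlap for 5 markers, against 34.7% of all genes. The median log2 fold change of the markers was -1.30, and all 10 estimates were below 0. DESeq2 called 5 markers, and limma-voom called 1, which was Cd68 and not Cd163. Of all tested genes DESeq2 called 3107 and limma-voom 1152, against 1331 by edgeR. For UA+DSS against Con edgeR called 0 of the 10, where 0.00566% of all tested genes were raised and 0 lowered. Only Fcgr1 had an unadjusted p under 0.05 there (0.0467), against 12.1% of all genes. DESeq2 and limma-voom called 0 of the markers, and 374 and 0 of all tested genes. The groups did not overlap for 1 marker (Cd163), against 20.6% of all genes. For DSS+UA against Con, Fcgr1 was raised and Mertk lowered, beside 9.13% of all genes raised and 8.95% lowered (18.1% in either direction). An unadjusted p under 0.05 was seen for 3 markers and 36.0% of all genes, and the groups did not overlap for 4 markers, against 38.9%. The comparisons with DSS share the DSS libraries, and those with Con the Con libraries.

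**Figure D2:**
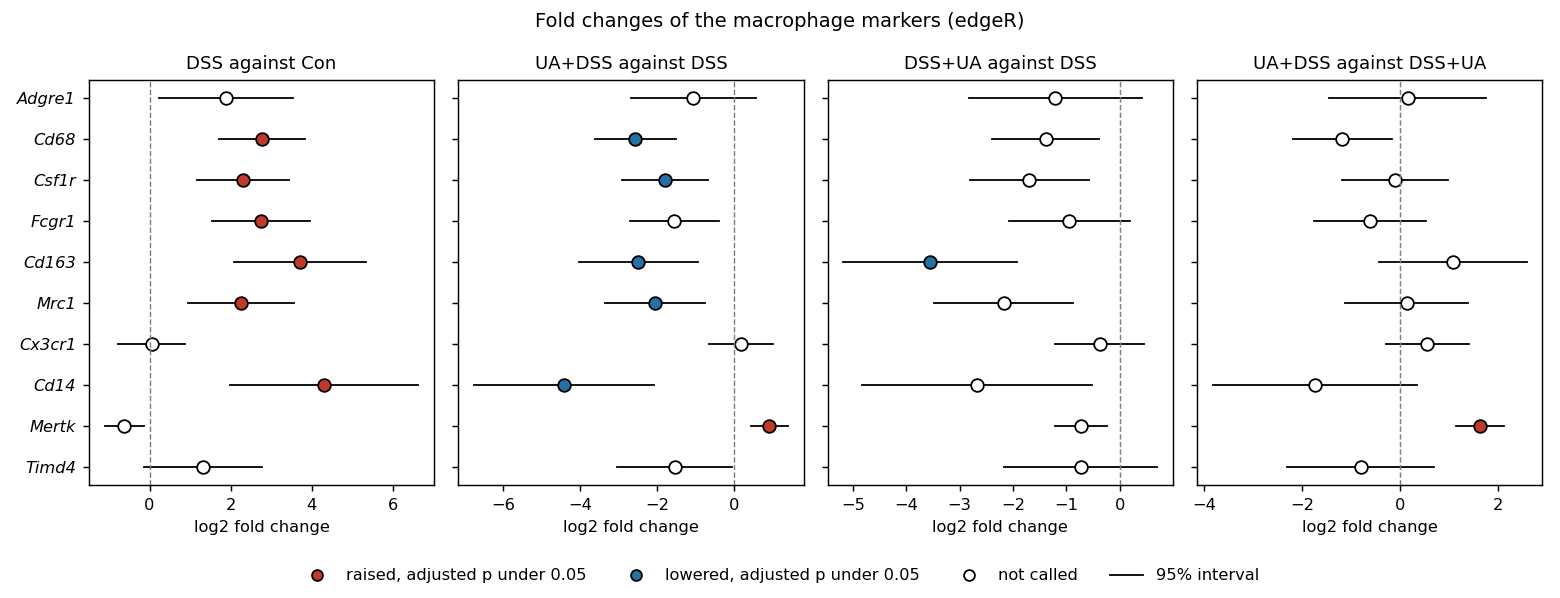
Log2 fold change of each marker with its 95% interval (edgeR) in 4 comparisons, each panel with its own axis range, with filled points for markers called at an adjusted p under 0.05. Mertk lies on the other side of 0 from Cd68, Csf1r, Fcgr1, Cd163, Mrc1 and Cd14 in the panels for DSS against Con and UA+DSS against DSS, and on the same side in DSS+UA against DSS.

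Csf1r (ENSMUSG00000024621), the receptor for Csf1 and IL-34 on which monocytes and macrophages depend, stood at 37.7, 13.4 and 43.7 CPM in Con and at 180.4, 188 and 97.3 CPM in DSS. It was 71.5, 36.2 and 26.0 CPM in UA+DSS, and in DSS+UA it stood at 32.1, 67.5 and 44.4 CPM. Every DSS library was above every other library, and the other 3 groups overlapped. The log2 fold change was 2.30 (SE 0.51, edgeR adjusted p = 0.0104) in DSS against Con, called in all 22 alternatives. It was -1.80 in UA+DSS against DSS (SE 0.50, adjusted p = 0.0340), called in 14 of the 22 and in none that left out DSS 1, DSS 2, UA+DSS 2, UA+DSS 3 or DSS+UA 3. Against DSS, DSS+UA gave -1.69 (SE 0.50, adjusted p = 0.0608), called by DESeq2 (0.00755), with at least 10 counts in every library (0.0478) and without Con 2 (0.0473). Exons of Csf1r overlap those of Hmgxb3 on the opposite strand, which stood at 18.6 to 35.8 CPM, and as the use of strand in counting is not given, reads in the overlap cannot be assigned.

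Cd68 (ENSMUSG00000018774, chr11:69664213-69666153), a lysosomal glycoprotein of phagocytes, stood at 10.7, 3.49 and 8.98 CPM in Con and at 62.2, 61.4 and 35.8 CPM in DSS. It was 11.4, 7.93 and 7.55 CPM in UA+DSS, and in DSS+UA it stood at 12.3, 34.1 and 14.5 CPM. The UA+DSS libraries overlapped with Con and lay below all DSS+UA libraries, and DSS+UA 2 reached almost the lowest DSS library. Cd68 rose by a log2 fold change of 2.78 in DSS against Con (SE 0.48, edgeR adjusted p = 0.00391, 22 of 22 alternatives). It fell in UA+DSS against DSS (log2 fold change -2.57, SE 0.48, adjusted p = 0.0112, 20 of 22 alternatives), and the call was lost without UA+DSS 2 (0.0617) and with the position score (0.196). The log2 fold change was -1.39 in DSS+UA against DSS (SE 0.46, adjusted p = 0.0776), in DSS+UA against Con 1.39 (adjusted p = 0.0585) and in UA+DSS against DSS+UA -1.18 (adjusted p = 0.0993), each called by DESeq2. Limma-voom also called the first of these (adjusted p = 0.0432).

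Fcgr1 (ENSMUSG00000015947, chr3:96282909-96293969), which encodes CD64, the high-affinity receptor for IgG that separates macrophages and their precursors from dendritic cells, stood at 3.36, 1.55 and 3.74 CPM in Con. It was 23.7, 21.5 and 13.3 CPM in DSS, 11.0, 5.25 and 3.62 CPM in UA+DSS, and in DSS+UA it stood at 5.69, 17.6 and 7.15 CPM. All DSS+UA libraries were above all Con libraries, and DSS+UA 2 lay within the DSS range. Fcgr1 rose by a log2 fold change of 2.75 in DSS against Con (SE 0.55, edgeR adjusted p = 0.00648, 22 of 22 alternatives). It was -1.56 in UA+DSS against DSS (SE 0.53, adjusted p = 0.0600), with no overlap between the groups, and was called in 5 of 22 alternatives. For DSS+UA against DSS it was -0.94 (SE 0.52, adjusted p = 0.244). Fcgr1 also rose in DSS+UA against Con, by 1.81 (SE 0.54, adjusted p = 0.0405), a call kept in 8 of 22 alternatives and lost without any 1 of the Con libraries, DSS 1, UA+DSS 2, DSS+UA 2 or DSS+UA 3.

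Adgre1 (ENSMUSG00000004730, chr17:57358691-57483527), which encodes the macrophage surface protein F4/80, stood at 9.21, 4.94 and 17.4 CPM in Con and 54.4, 24.6 and 37.7 CPM in DSS. It was 33.3, 14.3 and 8.40 CPM in UA+DSS, and in DSS+UA it stood at 5.06, 35.0 and 10.4 CPM. The DSS and Con libraries did not overlap, but the spread within each UA group reached from the Con into the DSS range. The log2 fold change was 1.89 in DSS against Con (SE 0.75, edgeR adjusted p = 0.0849), which was called by DESeq2 (0.0217) and without DSS+UA 2 (0.0412) and in none of the other 20 alternatives. It was -1.06 in UA+DSS against DSS (adjusted p = 0.338) and -1.21 in DSS+UA against DSS (adjusted p = 0.292), called in no alternative. For Adgre1, Csf1r, Cd68 and Fcgr1 alike, DSS+UA 2 was the highest library of its group.

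Cd163 (ENSMUSG00000008845, chr6:124304656-124330527), the scavenger receptor for complexes of hemoglobin and haptoglobin, stood at 7.14, 1.33 and 6.84 CPM in Con. In DSS it was 125, 15.3 and 62.4 CPM, in UA+DSS 14.1, 11.7 and 10.4 CPM and in DSS+UA 5.32, 5.63 and 6.26 CPM. DSS was the highest group and DSS 2 its lowest library, just above UA+DSS 1, while the DSS+UA libraries lay within the Con range and below all UA+DSS libraries. Cd163 rose in DSS against Con by a log2 fold change of 3.72 (SE 0.74, edgeR adjusted p = 0.00675), called in 22 of 22 alternatives, with 2.92 without DSS 1 and 4.19 without DSS 2. It fell in DSS+UA against DSS (log2 fold change -3.56, SE 0.73, adjusted p = 0.0261), and with the position score the value was -3.98 (adjusted p = 0.0446). That call was kept in 16 of 22 alternatives and lost without any 1 DSS+UA library (0.0576 to 0.107), with no filter, by limma-voom and in a fit of only the 2 groups compared. Of all tested genes 199 were called in this comparison with the score, against 1331 in the main fit. Without DSS+UA 1, 2 and 3 the calls of all genes were 957, 142 and 25. Cd163 fell in UA+DSS against DSS by 2.48 on the log2 scale (SE 0.70, adjusted p = 0.0343, 13 of 22 alternatives), with a log2 fold change of -1.69 without DSS 1 (adjusted p = 0.119) and -1.31 with the position score (adjusted p = 0.504), and the call was also lost without any 1 UA+DSS library (0.0794 to 0.123) or DSS+UA 3 (0.0519). The direct difference between the UA groups was 1.07 (SE 0.68, adjusted p = 0.295) and was called only in the fit of those 2 groups (0.0127).

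Mrc1 (ENSMUSG00000026712, chr2:14229392-14332057), which encodes the mannose receptor CD206, an endocytic receptor of tissue macrophages, stood at 32.8, 12.6 and 35.7 CPM in Con. It was 227, 43.8 and 115 CPM in DSS, 48.6, 26.1 and 19.0 CPM in UA+DSS, and in DSS+UA it stood at 22.1, 31.2 and 32.1 CPM. DSS 2 was again far below the other DSS libraries and overlapped with UA+DSS, while the DSS+UA libraries sat within the Con range. Mrc1 rose in DSS against Con (log2 fold change 2.25, SE 0.59, edgeR adjusted p = 0.0201, 18 of 22 alternatives), a call lost without DSS 1 (1.56, adjusted p = 0.0709) and without Con 2 (0.0651). It fell in UA+DSS against DSS (log2 fold change -2.05, SE 0.59, adjusted p = 0.0369, 13 of 22 alternatives), with -1.36 without DSS 1 (adjusted p = 0.131) and calls lost without Con 3, DSS 3, UA+DSS 2, UA+DSS 3 or DSS+UA 3 as well. For DSS+UA against DSS the log2 fold change was -2.18 (SE 0.59, adjusted p = 0.0501), and 5 of 22 alternatives called it.

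The DSS 2 library held as much Csf1r as DSS 1 but a smaller amount of the scavenger receptors. Per 100 reads of Csf1r in the same library, Cd163 had 69.2, 8.14 and 64.1 reads in DSS, against 19.0, 9.96 and 15.7 in Con, 19.7, 32.4 and 39.9 in UA+DSS and 16.6, 8.33 and 14.1 in DSS+UA. Mrc1 had 126, 23.3 and 119 reads in DSS, 87.1, 94.2 and 81.8 in Con, 68.0, 71.9 and 73.0 in UA+DSS and 68.9, 46.2 and 72.3 in DSS+UA. So DSS 1 and DSS 3 were above all other libraries in both ratios and DSS 2 was the lowest of the 12. Within DSS, Cd68 and Fcgr1 kept closer to Csf1r: Cd68 had 32.7 to 36.8 reads per 100 in DSS and 20.6 to 28.3 in Con, and Fcgr1 11.4 to 13.7 in DSS and 8.57 to 11.6 in Con. Cd68 had 15.9 to 29.0 reads per 100 in UA+DSS and 32.6 to 50.5 in DSS+UA. In DSS+UA, Fcgr1 had 16.1 to 26.1 reads per 100 of Csf1r, above every library of the other groups.

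**Figure D3:**
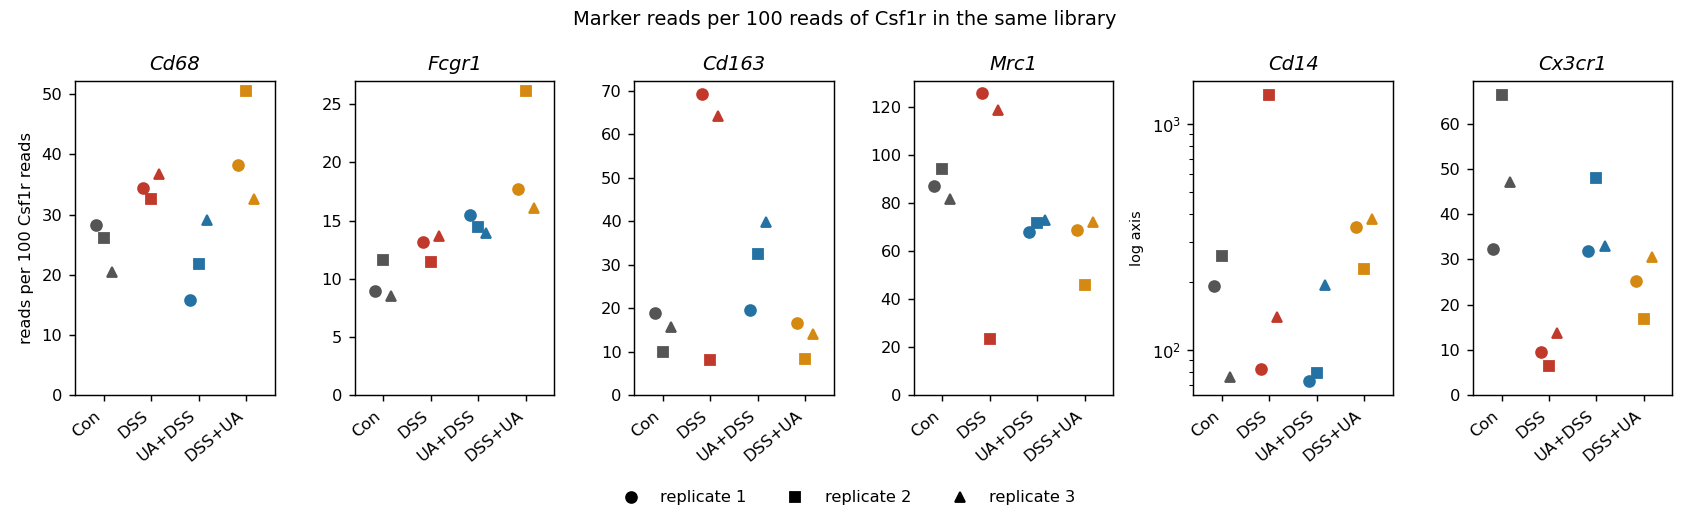
Reads of 6 markers per 100 reads of Csf1r in the same library, by group, with the replicate number as the symbol and a log axis for Cd14. For Cd163 and Mrc1, DSS 1 and DSS 3 lie above all other libraries and DSS 2 below them, for Cd14 DSS 2 stands at 1341, and for Cx3cr1 the DSS libraries are the lowest 3 (6.54 to 13.8).

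Cd14 (ENSMUSG00000051439), which hands lipopolysaccharide to Tlr4 and is made by monocytes, macrophages and neutrophils, stood at 72.5, 35.0 and 33.2 CPM in Con and at 148, 2519 and 136 CPM in DSS. It was 52.0, 28.7 and 50.4 CPM in UA+DSS, and in DSS+UA it stood at 113, 154 and 169 CPM. The DSS and DSS+UA libraries were all above the Con and UA+DSS libraries, and 1 library, DSS 2, set the mean of its group. Cd14 rose in DSS against Con by a log2 fold change of 4.32 (SE 1.05, edgeR adjusted p = 0.0148), which was 1.59 without DSS 2 (adjusted p = 0.0136). The call was kept in 17 of 21 alternatives and lost without Con 2 (0.0604), without Con 3 (0.0513), with the replicate block (0.052) and in the fit of the 2 groups (0.0724). It fell in UA+DSS against DSS (log2 fold change -4.42, SE 1.05, adjusted p = 0.0200), which was -1.71 without DSS 2 (adjusted p = 0.0221), and the call was kept in 14 of 21 alternatives. It was lost without any 1 UA+DSS library (0.0573 to 0.0967), with the replicate block (0.0597), with no filter (0.062), with the position score (0.216) and in the fit of the 2 groups (0.0691). The value in DSS+UA against DSS was -2.68 (adjusted p = 0.101), and without DSS 2 it was 0.05 (adjusted p = 0.954).

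Without DSS 2, Cd14 was raised in DSS+UA against Con (log2 fold change 1.64, edgeR adjusted p = 0.00849) and lowered in UA+DSS against DSS+UA (-1.75, adjusted p = 0.00847). With all libraries these values were 1.63 (adjusted p = 0.235) and -1.73 (adjusted p = 0.224). Neutrophils also make Cd14. The 10 genes of the neutrophil list summed to 10.5 to 115 CPM in Con, 925 to 18489 in DSS, 33.4 to 129 in UA+DSS and 416 to 1033 in DSS+UA, none of them without a count in any group. Of these 10 genes 9 rose in DSS against Con, 9 fell in UA+DSS against DSS, 1 fell in DSS+UA against DSS and 8 rose in DSS+UA against Con. Of all tested genes 13.9%, 10.5%, 5.0% and 9.13% did so in the same order. The part of neutrophils in the Cd14 values was not tested.

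Mertk (ENSMUSG00000014361, chr2:128698956-128802894), a receptor tyrosine kinase with which macrophages and epithelia bind dying cells through Gas6 and Pros1, stood at 37.2, 50.1 and 38.3 CPM in Con. It was 25.6, 29.0 and 26.7 CPM in DSS, 39.1, 64.3 and 49.0 CPM in UA+DSS, and in DSS+UA it stood at 12.2, 17.8 and 19.2 CPM. The order was DSS+UA, DSS, then Con and UA+DSS, and only the last pair overlapped. Mertk was lower in DSS+UA than in Con by a log2 fold change of -1.35 (SE 0.22, edgeR adjusted p = 0.00556), called in 22 of 22 alternatives. It was higher in UA+DSS than in DSS (0.91, SE 0.22, adjusted p = 0.0200, 18 of 22 alternatives, lost without DSS 1, UA+DSS 2 or UA+DSS 3 and with the position score). It was also higher in UA+DSS than in DSS+UA (1.63, SE 0.23, adjusted p = 0.00591), the only marker called between the UA groups, where 7.54% of all tested genes were raised and 9.23% lowered (16.8% in either direction). An unadjusted p under 0.05 was seen there for 2 markers and 33.8% of all genes, and the groups did not overlap for 5 markers against 45.3% of all genes. The Mertk call was kept in 21 of 22 alternatives and lost with the position score (log2 fold change 1.29, edgeR adjusted p = 0.309). With the score no tested gene was called between the UA groups, against 2961 without it.

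The remaining steps of Mertk missed the threshold. In DSS against Con the log2 fold change was -0.63 (SE 0.22, edgeR adjusted p = 0.0546, called in 6 of 22 alternatives), and in DSS+UA against DSS it was -0.72 (SE 0.22, adjusted p = 0.0640, called in 4 of 22). Con 1, whose position score of 5.53 was above those of the DSS+UA libraries, had 37.2 CPM of Mertk. The other Con libraries had 50.1 and 38.3 CPM, and 1 library cannot separate position from treatment. With DSS+UA against Con, the Mertk log2 fold change with the score as a covariate was -1.19 (edgeR adjusted p = 0.0233).

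Mertk is also made by cells other than macrophages. The 8 colon epithelium genes summed to 9075 to 22536 CPM in Con, 4787 to 10526 in DSS, 18850 to 23016 in UA+DSS and 10250.4 to 14923 in DSS+UA, and 3 of the 8 rose in UA+DSS against DSS, 2 fell in DSS against Con, 1 rose in DSS+UA against DSS, where Mertk had an estimate below 0, and none was called in DSS+UA against Con. The 6 smooth muscle genes summed to 1094 to 3467 CPM in Con, 661 to 1454 in DSS, 1124 to 2436 in UA+DSS and 436 to 866 in DSS+UA, and 3 of the 6 (Myh11, Des and Tagln) were lower in DSS+UA than in Con and in UA+DSS, with none called in DSS against Con or in either UA group against DSS. Of all tested genes 8.21% rose in UA+DSS against DSS, 12.6% fell in DSS against Con and 2.54% rose in DSS+UA against DSS. In DSS+UA 8.95% were lower than in Con, and 7.54% were higher in UA+DSS than in DSS+UA. No gene of the epithelial and smooth muscle lists was without a count in any group, and their part in the Mertk values was not tested.

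Timd4 (ENSMUSG00000055546, chr11:46810800-46844332), which encodes TIM-4, a receptor for phosphatidylserine on long-lived resident macrophages, stood at 1.29, 0.17 and 0.91 CPM in Con and at 2.55, 2.81 and 0.58 CPM in DSS. It was 0.83, 0.56 and 0.64 CPM in UA+DSS, and in DSS+UA it stood at 1.21, 1.48 and 0.89 CPM. DSS held both the highest libraries and one of the lowest. No comparison was called with all libraries, and UA+DSS against DSS (-1.54, edgeR adjusted p = 0.133) was called only without DSS 3 (0.0472). The log2 fold change in DSS against Con was 1.32 (SE 0.67, 95% interval -0.15 to 2.78, edgeR adjusted p = 0.161).

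Cx3cr1 (ENSMUSG00000052336, chr9:119901616-120069879), the fractalkine receptor of mature lamina propria macrophages and of patrolling monocytes, stood at 12.2, 8.87 and 20.5 CPM in Con and at 17.4, 12.3 and 13.4 CPM in DSS. It was 22.8, 17.4 and 8.56 CPM in UA+DSS, and in DSS+UA it stood at 8.11, 11.4 and 13.5 CPM. All groups overlapped. The log2 fold change in DSS against Con was 0.05 (95% interval -0.79 to 0.88, edgeR adjusted p = 0.934), in UA+DSS against DSS 0.18 (-0.66 to 1.01, adjusted p = 0.783) and in DSS+UA against DSS -0.38 (-1.22 to 0.46, adjusted p = 0.531), and no alternative called it. The interval of DSS against Con lies below the estimates of Cd68, Csf1r, Fcgr1, Cd163, Mrc1 and Cd14. Per 100 reads of Csf1r, Cx3cr1 had 32.4, 66.4 and 47.0 reads in Con and 9.62, 6.54 and 13.8 in DSS, the lowest 3 libraries of the 12. Exons of Cx3cr1 overlap those of Gm33858 on the opposite strand, which had at most 0.28 CPM.

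The 45 pairs of markers were compared by Pearson's r of log2 CPM over the 12 libraries, as a description, since the libraries share the group differences. Cd68, Csf1r and Fcgr1 had r of 0.94 with each other, Cd163 and Mrc1 0.93, and Adgre1 and Csf1r 0.86. Cd14 had r of 0.29 with Cd163 and 0.32 with Mrc1. Mertk had r below 0 with 8 of the other 9 markers, between -0.51 and 0.27. The 3 genes most like each marker, taken from named genes whose log2 CPM averaged 1 or more, differed between the sets.

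The genes most like Csf1r were Aoah, Otulinl and Cybb (r 0.97 each), and those most like Cd68 were Pla2g15, C1ra and Abcg1 (0.98, 0.97 and 0.97). For Fcgr1 they were Tifab, Clec4a2 and Cxcl16 (0.98 each), and for Adgre1 Ms4a7, Pltp and C3ar1 (0.95, 0.93 and 0.93). Cd163 and Mrc1 both had Stab1 first (0.95 and 0.96), a scavenger receptor of macrophages and sinusoidal endothelium, followed by Man1c1 and Dennd2a for Cd163 (0.94 each) and by Siglec1 and Tent5c for Mrc1 (0.96 and 0.94). Stab1 stood at 18.1 to 52.5 CPM in Con, 77.2 to 176 in DSS, 38.3 to 60.1 in UA+DSS and 30.3 to 52.0 in DSS+UA, with DSS 2 its lowest DSS library. Cd14 was most like Il1rn (0.99), the antagonist of interleukin-1 receptors, then Fes (0.99) and F630028O10Rik (0.98). Il1rn stood at 135, 986 and 120.4 CPM in DSS and at 32.5 to 67.0 in Con. Mertk was most like Prss23 (0.98), Agrn (0.96) and Bche (0.95), Cx3cr1 had Ahrr (0.81) and Hlf (0.80) among its 3, and Timd4 was most like Plekho1 (0.93), Icosl (0.92) and Mfng (0.92).

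Ligands of Csf1r and myeloid transcription factors (10 genes) were set beside the macrophage markers. In DSS against Con 8 rose and none fell (13.9% and 12.6% of all tested genes), at a median log2 fold change of 1.65 beside -0.03 over all genes. Then 7 fell and Cebpa rose in UA+DSS against DSS (10.5% and 8.21% of all genes). In DSS+UA against DSS 4 fell (5.0% of all genes), where 1 of the 10 markers fell. Csf1 rose in DSS from 19.8 ± 7.62 to 37.6 ± 7.26 CPM (SD, n = 3, log2 fold change 0.92, edgeR adjusted p = 0.0351) and Il34, the other ligand, by a log2 fold change of 1.15 (adjusted p = 0.0351). Cebpb, a factor of emergency granulocyte and macrophage formation, stood at 11.6 to 16.4 CPM in Con and at 110, 509 and 91.4 CPM in DSS (log2 fold change 4.16, adjusted p = 0.00250). Spi1, which encodes PU.1, stood at 4.05 to 12.2 CPM in Con and at 59.6, 299 and 31.6 CPM in DSS (3.95, adjusted p = 0.00743). Both were highest in DSS 2, as was Cd14. Runx3 rose by 3.14 (adjusted p = 0.00275). Counts of Cebpb and Il34 are uncertain because their exons overlap those of other genes.

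Among 12 ligands and partners of the markers, 8 rose and none fell in DSS against Con (13.9% and 12.6% of all tested genes). In UA+DSS against DSS 7 fell and Cx3cl1 rose (10.5% and 8.21% of all genes), and 4 fell in DSS+UA against DSS (5.0%). Those with the smallest p in DSS against Con were Lbp, which carries lipopolysaccharide to Cd14 (log2 fold change 2.80, edgeR adjusted p = 0.00117), Hmox1, which breaks down the heme taken up through Cd163 (4.91, adjusted p = 0.00242), Hp, the haptoglobin bound by Cd163 (10.24, adjusted p = 0.00306), and Pros1 (1.16, adjusted p = 0.00334). Lbp stood at 3.64 to 3.72 CPM in Con and at 38.1, 16.3 and 22.7 CPM in DSS. Hmox1 stood at 3.11 to 6.10 CPM in Con and at 52.4, 284 and 48.3 CPM in DSS, so that DSS 2 was highest in Hmox1 and lowest in Cd163 among the DSS libraries. Hp had 37 counts over the Con libraries, and 2135 CPM in DSS 2 against 116 and 172 CPM in the other DSS libraries.

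The 2 ligands of Mertk did not go the same way in DSS. Pros1 rose to 75.1, 56.9 and 66.0 CPM from 22.3 to 38.4 CPM in Con, while Gas6 stood at 319, 84.5 and 260.3 CPM in DSS and at 385 to 719 CPM in Con (log2 fold change -1.17, edgeR adjusted p = 0.0642). Axl, the related receptor, rose by a log2 fold change of 1.28 (adjusted p = 0.00687) where Mertk had -0.63. Cx3cl1, the ligand of Cx3cr1, had a log2 fold change of -0.79 in DSS against Con (adjusted p = 0.0758) and rose by 1.12 in UA+DSS against DSS (adjusted p = 0.0303), to 78.7, 80.0 and 94.9 CPM. Of the Cd14 partners, Tlr4 rose in DSS by 0.84 (adjusted p = 0.0429), and Ly96 had -0.01 (adjusted p = 0.988). Fcer1g, the signalling chain of CD64, rose by 3.65 (adjusted p = 0.00572), with 80.4, 289 and 43.8 CPM in DSS against 6.05 to 14.7 CPM in Con. Exons of Gas6 overlap those of Tmem255b on the opposite strand.

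Of 12 blood monocyte genes 8 rose and none fell in DSS against Con (13.9% and 12.6% of all tested genes). In UA+DSS against DSS 10 fell (10.5% of all genes), and in DSS+UA against DSS 4 fell and Plac8 rose (5.0% and 2.54%). Raised in DSS+UA against Con were 4, Ccr2 among them (9.13% of all genes). F13a1, which encodes the coagulation factor XIII A chain of monocytes and resident macrophages, stood at 6.93 to 16.5 CPM in Con, 126, 99.9 and 76.5 CPM in DSS and 9.53 to 11.8 CPM in DSS+UA (log2 fold change 2.99 in DSS against Con, edgeR adjusted p = 0.00133, and -3.24 in DSS+UA against DSS, adjusted p = 0.00387). Ccr2, the chemokine receptor with which monocytes leave the marrow, stood at 6.05 to 7.40 CPM in Con, 34.5, 53.2 and 43.5 in DSS, 20.4, 7.93 and 14.4 in UA+DSS and 12.4, 38.5 and 20.3 in DSS+UA. It rose in DSS against Con by 2.73 (adjusted p = 0.00285), and in DSS+UA against Con by 1.84 (adjusted p = 0.0153), and DSS+UA 2 was the highest of its group as for Cd68 and Fcgr1. Vcan rose by 2.57 (adjusted p = 0.00274). Chil3 had 2 counts over the Con libraries and 8427 over the DSS libraries, which is 3958 times as much at equal depth (exact 95% interval from counting alone 1095 to 32691, edgeR adjusted p = 0.00332).

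Of 20 tissue macrophage genes 19 were tested, and 14 of them rose and none fell in DSS against Con (13.9% and 12.6% of all tested genes). In UA+DSS against DSS 9 fell (10.5% of all genes), and in DSS+UA against DSS 3 fell (5.0%). Against Con, 4 rose in DSS+UA (Msr1, Trem2, Gpnmb and Marco), beside 9.13% of all genes. Marco, a scavenger receptor for bacteria, had 4 counts over the Con libraries and stood at 5.48, 31.7 and 9.24 CPM in DSS (log2 fold change 7.63, edgeR adjusted p = 0.00133). Gpnmb, a lysosomal protein of lipid-laden macrophages, stood at 3.77 to 8.98 CPM in Con, 123, 34.5 and 53.7 CPM in DSS, and in DSS+UA it stood at 17.3, 33.2 and 22.5 CPM (3.39 in DSS against Con, adjusted p = 0.00303). Msr1 rose by 3.62 (adjusted p = 0.00322). Cd209b rose by 4.03 (adjusted p = 0.00562) from 7 to 128 counts over the group. Lyve1, Cd209b and Marco were the 3 that fell in DSS+UA against DSS.

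Lists of other cells are given beside the macrophage lists. Of all tested genes 13.9% rose in DSS against Con, 10.5% fell in UA+DSS against DSS and 5.0% fell in DSS+UA against DSS. The 12 monocyte genes summed to 996 to 1155 CPM in Con and 1729 to 2268 in DSS, and to 1372, 3177 and 1768 CPM in DSS+UA. The 9 endothelial genes summed to 164 to 205 CPM in Con, 338 to 424 in DSS, 141 to 175 in UA+DSS and 115 to 133 in DSS+UA, and 5 of 9 rose in DSS against Con, 6 fell in UA+DSS against DSS and 7 fell in DSS+UA against DSS. The 6 fibroblast genes summed to 906 to 1571 CPM in Con and 2707 to 6020.1 CPM in DSS, where 5 of 6 rose, and to 543 to 1365 CPM in UA+DSS and 771 to 1944 CPM in DSS+UA, where 4 and 3 of the 6 fell against DSS. The share of counts from mitochondrial genes was 4.46 to 9.53% in Con, 1.23 to 2.93% in DSS, 4.21 to 5.58% in UA+DSS and 2.48 to 3.03% in DSS+UA. Beside the 13.9% of all genes raised in DSS against Con, 3 of 8 dendritic cell genes, 1 of 7 B cell genes and 3 of 6 T cell genes rose. Against DSS, 3 B cell genes and 1 dendritic cell gene fell in UA+DSS and 1 dendritic cell gene fell in DSS+UA, and no T cell gene was called by edgeR in either. The part of these differences in the marker values was not tested.

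**Figure D4:**
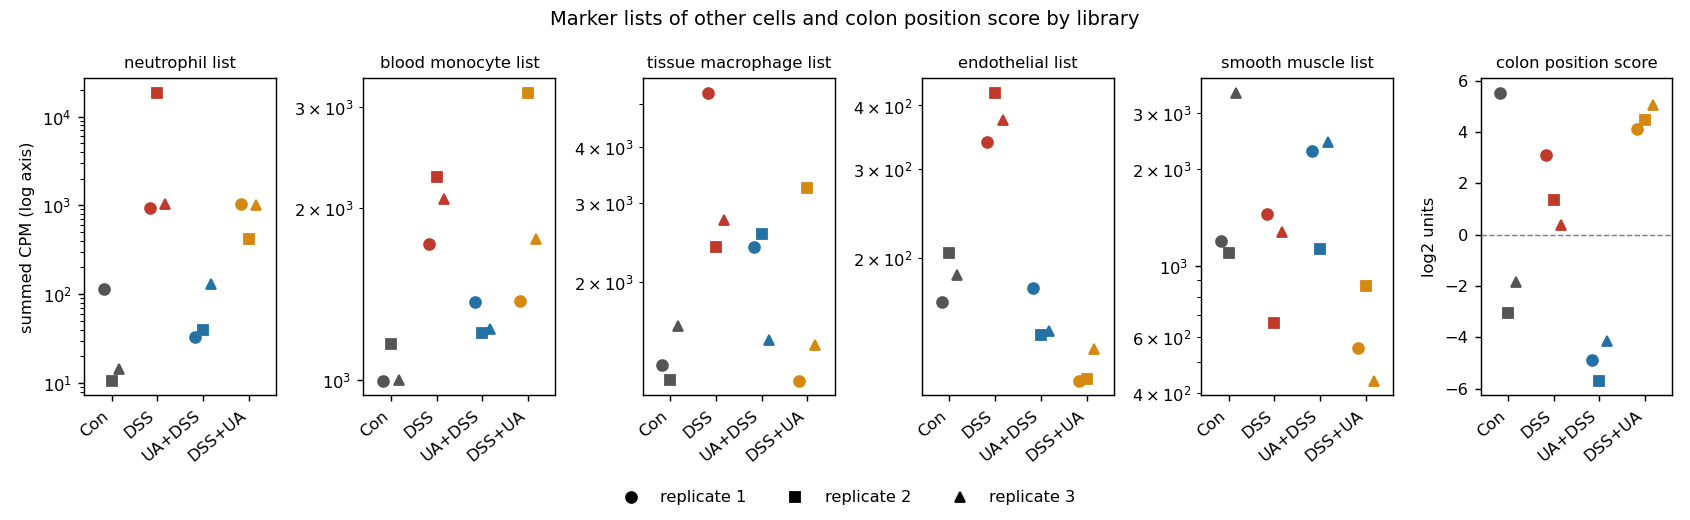
Summed CPM (log axes) of 5 marker lists and the colon position score (log2 units) in every library, by group, with the replicate number as the symbol. DSS 2 stands at 18489 CPM in the neutrophil list, DSS+UA 2 is the highest of its group in the monocyte and macrophage lists, and the position scores of UA+DSS (-5.70 to -4.16) and DSS+UA (4.11 to 5.06) do not overlap.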

How the data were processed

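Colon RNA of 12 mice was sequenced by the authors, who mapped reads to GRCm38 and took counts with HISAT2 per the methods, with FastQC and Cuffdiff also named in the submitters' processing notes. The deposited files hold the authors' raw read counts, as whole numbers for each Ensembl gene. Not given in the sources used here are the aligner version, whether strand was used, the gene annotation and what became of shared reads. RNA came from Trizol by the labels and from the RNeasy kit by the methods. Groups and replicate numbers came from the sample titles.

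Of 54532 genes per file, 54495 were named by GENCODE M21 (GRCm38), and the 37 others held 0.00364% of the counts. Replicates differed by more than counting error (chi-square per degree of freedom 20.9 to 227), and none was a copy of another. The filterByExpr step of edgeR 4.0.16 (R 4.3.3) left 17658 genes with 99.8% of the counts. After TMM scaling (factors 0.871 to 1.09) all 12 libraries entered 1 robust quasi-likelihood fit (biological coefficient of variation 0.352). Contrasts of 2 groups were tested in it, with Benjamini-Hochberg adjusted p-values across the tested genes called under 0.05. The steps were tested on simulated counts for DSS against Con alone, with planted fold changes and no difference in colon position. The UA comparisons were not covered by that test. P-values measure only the spread between these libraries, and 3 per group limits the precision. Log2 CPM used a prior count of 2, and the 95% interval given with a ratio of counts is exact binomial and covers counting error only.

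Named genes are the 10 markers, the 4 genes with the smallest p in DSS against Con of each of 4 macrophage lists with the ligands and partners of a marker, genes named to identify a count, and the 3 tested genes most like each marker, and a few genes that this rule names are not reported here. Members and lists were chosen with earlier results of these data known. Alternatives were DESeq2 1.42.0, limma-voom (limma 3.58.1), other scaling factors, other filters, a model of just the 2 groups in question, a replicate block, the position score as a covariate and leaving out each library. DESeq2 gave no adjusted p for Cd14 in any comparison, so its counts of markers leave Cd14 out. Tables and figures used Python 3.11.15, numpy 2.4.6, scipy 1.17.1, pandas 2.3.3 and matplotlib 3.10.9. Histology, serum cytokines and fecal microbiota were not analysed here.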

Additional observations from a re-analysis of the deposited data

Results flagged for a closer look

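Mertk was the marker for which the effects of early and late UA differed by the test of that difference. Against the same DSS libraries it was higher in UA+DSS (log2 fold change 0.91) and lower in DSS+UA (-0.72), and the direct comparison of UA+DSS with DSS+UA gave a log2 fold change of 1.63 (edgeR adjusted p = 0.00591), with all 3 UA+DSS libraries above all 3 DSS+UA libraries. With the position score as a covariate the value was 1.29 (edgeR adjusted p = 0.309), and the scores of these groups do not overlap. No tested gene was called between these groups with the score, against 2961 without it. Apart from the default outlier filter of DESeq2, groups of 3 libraries were not tested for single outlying libraries.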

How the results depend on the processing

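Of the fold changes recomputed under the alternatives, 1165 kept their direction and side of the threshold, 68 lost a call, 35 gained one and 40 changed sign, and the cause was not tested. The number of markers called in DSS against Con was 6 and ranged from 4 to 7 when 1 library was left out. Of all tested genes 4688 were called, and 2894 to 4708 with 1 library left out. In UA+DSS against DSS (6 called) the marker count was 2 with no filter, 2 in a fit of the 2 groups and 0 to 7 with 1 library left out. Of all tested genes 2328, 2072 and 183 to 4112 were called in the same order. The marker count was 0 with the position score, where 3 of all tested genes were called (3300 in the main fit). In DSS+UA against DSS (1 called) the marker count was 2 with DESeq2 size factors, 3 with library size only, 0 with no filter, 4 with at least 10 counts in every library, 5 with DESeq2, 2 with the replicate block, 0 in a fit of the 2 groups and 0 to 2 with 1 library left out. Of all tested genes 1350, 1143, 882, 1698, 3107, 552, 430 and 25 to 1825 were called in the same order (1331 in the main fit). In DSS+UA against Con (2 called) the marker count was 1 with upper-quartile factors, library size only, no filter, limma-voom, the replicate block or the position score, 3 with DESeq2, which added Cd68 (0.0173), and 1 to 3 with 1 library left out. Of all tested genes 3072, 2592, 2242, 2937, 2920, 2176, 4661 and 1062 to 4057 were called in the same order (3193 in the main fit). In UA+DSS against DSS+UA (1 called) the marker count was 2 with DESeq2, 3 in a fit of the 2 groups and 1 to 2 with 1 library left out. Of all tested genes 4349, 4284 and 560 to 3893 were called in the same order. The marker count was 0 with the position score, where no tested gene was called (2961 in the main fit). In UA+DSS against Con it was 0 each time a library was left out, where 0 to 4 of all tested genes were called.

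Replicate numbers do not pair the samples, since deviations of same-numbered libraries correlated at -0.216 to 0.187, with 5 of 18 over 0.1. With the replicate number as a block, 6 markers were called in DSS against Con, with Cd14 lost (0.052) and Mertk gained (0.0251), and 5 in UA+DSS against DSS, with Cd14 lost (0.0597). With that block 4373 and 3151 of all tested genes were called in the same order. Mrc1 in UA+DSS against DSS+UA had a log2 fold change of -0.020.

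The other log2 fold changes that changed sign were of markers not called in that comparison. In UA+DSS against Con, Cd14 was 0.62 with the position score, and Timd4 1.02 with it and 0.15 with limma-voom. In DSS+UA against Con, Cd163 was -0.48, Mrc1 -0.41 and Timd4 -0.12 with the score, and Mrc1 was -0.019 with upper-quartile factors and -0.026 with library size only. In UA+DSS against DSS+UA, Csf1r was 0.72, Fcgr1 0.072 and Timd4 1.14 with the score. Leaving out 1 library gave ranges across 0 in UA+DSS against Con for Cd14 (-0.31 to 0.36), Cd68 (-0.13 to 0.52), Csf1r (-0.015 to 0.79), Cx3cr1 (-0.093 to 0.61), Mrc1 (-0.26 to 0.46) and Timd4 (-0.69 to 0.32). For DSS+UA against Con it did so for Adgre1 (-0.43 to 1.25), Cd163 (-0.28 to 0.49), Cx3cr1 (-0.56 to 0.070) and Mrc1 (-0.26 to 0.33). For UA+DSS against DSS+UA it did so for Adgre1 (-0.57 to 1.25), Csf1r (-0.63 to 0.20), Fcgr1 (-1.20 to 0.024) and Mrc1 (-0.34 to 0.37). Against DSS, Cd14 ranged from -3.18 to 0.048 in DSS+UA and Cx3cr1 from -0.15 to 0.48 in UA+DSS, and Cx3cr1 in DSS against Con from -0.19 to 0.43.

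Scaling by library size alone moved the median of all genes by -0.13 in DSS+UA against DSS and the raised share of calls from 33.7% to 12.2%. For DSS+UA against Con that share went from 50.5% to 39.9%, and to 38.8% with upper-quartile factors. Limits are the 3 libraries per group and calls, among all genes as among the markers, that rest on single libraries. Further limits are the 3 to 56 counts of Timd4 per library and the position scores that differ between the UA groups.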
